A study of Homo sapiens with 16 samples.

Results

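The genes described here are the zinc finger genes of human chromosome 19 whose symbol is ZNF followed by digits alone. They were taken from the deposited count tables by chromosome and symbol. That rule uses no measured value, but the group was chosen with earlier results of these data known. There were 234 of them among the 20626 genes of the U343 tables and 232 among the 20314 genes of the U251 tables, in which ZNF28 and ZNF826 are not listed. Zinc finger genes with other kinds of names, such as ZFP or ZIM, are outside this group. The libraries came from U251 and U343 cells, established human glioblastoma lines, transfected for 48 h with a miR-137 mimic or a negative control (NC) mimic, each at 25 nM. In each line, RNASeq libraries were made from total RNA and RIPSeq libraries from RNA that came down with antibodies to PABP, the poly(A)-binding protein. Each of these 4 experiments had 2 control and 2 miR-137 libraries, 16 in all, and cDNA was primed with random hexamers in U251 but made with another kit (TotalScript) in U343, so that the kit and the line cannot be told apart. No source says whether replicates were separate cultures, so every p-value measures only the spread between these libraries, which may be technical.

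Most genes of this group encode transcription factors in which an array of C2H2 zinc fingers, the part that reads DNA, follows a KRAB domain. The KRAB domain binds TRIM28 (KAP1), which brings the histone methyltransferase SETDB1, HP1 proteins and the NuRD complex to silence transposable elements and other sequences. The genes arose by tandem duplication, so that neighbours can be closely alike. A microRNA lowers its targets by pairing through its seed, and it acts in part by loosening the hold of PABP on the poly(A) tail, which is why RNA bound to PABP was measured beside total RNA.

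In the hg18 coordinates of the tables the 234 genes fell into 16 position clusters, with a new cluster begun where the gap to the next member was over 1000000 bases. The largest held 57 members, from ZNF628 to ZNF446 (chr19:60679511-63684409). The next held 39, from ZNF175 to ZNF331 (chr19:56766343-58775335), and 31, from ZNF101 to ZNF254 (chr19:19640663-24104494), the cluster of ZNF91 and ZNF93. Of the members, 128 were on the plus and 106 on the minus strand, and 10 overlapped another gene of the table, ZNF146 and ZNF565 among them. RefSeq (GRCh38.p14) gave 227 as protein coding and 7 as transcribed pseudogenes, including ZNF833, now ZNF833P. How reads matching several near-identical members were counted is not given in the sources used here, so values of closely related neighbours such as ZNF443 and ZNF799 are uncertain to that extent.

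The sequences below, from RefSeq on GRCh38.p14, show the microRNA and the promoters of 3 members with some of the widest differences below. The first is the miR-137-3p strand (chr1:98046091-98046113, minus strand) with its seed, bases 2 to 8, in capitals; the labels do not give the sequence of the mimic. The others run from 250 bases before to 50 after the start of ZNF606 (chr19:58002771-58003070), ZNF329 (chr19:58150740-58151039) and ZNF541 (chr19:47573099-47573398), all on the minus strand, with CG dinucleotides in capitals. ZNF606 and ZNF329 were chosen because each was read almost only in 1 of the 2 lines, and ZNF541 because it had the largest rise with miR-137.
hsa-miR-137-3p: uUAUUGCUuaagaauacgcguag
ZNF606: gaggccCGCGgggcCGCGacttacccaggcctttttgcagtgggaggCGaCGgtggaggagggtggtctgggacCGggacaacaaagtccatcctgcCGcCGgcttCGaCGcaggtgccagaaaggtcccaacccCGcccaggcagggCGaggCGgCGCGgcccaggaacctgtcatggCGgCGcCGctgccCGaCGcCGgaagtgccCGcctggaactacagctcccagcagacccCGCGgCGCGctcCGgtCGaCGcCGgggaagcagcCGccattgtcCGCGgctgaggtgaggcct
ZNF329: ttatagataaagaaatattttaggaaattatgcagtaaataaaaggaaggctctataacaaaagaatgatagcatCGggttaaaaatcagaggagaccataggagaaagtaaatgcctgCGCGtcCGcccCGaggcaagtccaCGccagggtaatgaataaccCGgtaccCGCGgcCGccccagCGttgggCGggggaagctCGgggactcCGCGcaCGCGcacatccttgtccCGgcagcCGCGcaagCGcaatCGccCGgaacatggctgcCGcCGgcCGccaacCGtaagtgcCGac
ZNF541: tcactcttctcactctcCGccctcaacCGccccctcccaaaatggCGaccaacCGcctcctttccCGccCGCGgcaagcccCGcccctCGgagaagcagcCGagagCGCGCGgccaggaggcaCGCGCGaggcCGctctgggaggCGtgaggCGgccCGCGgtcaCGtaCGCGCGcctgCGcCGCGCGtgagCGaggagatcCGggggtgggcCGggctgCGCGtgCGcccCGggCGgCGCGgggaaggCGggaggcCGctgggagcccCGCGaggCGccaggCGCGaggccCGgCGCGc
Their promoters held 34, 28 and 49 CG dinucleotides. Over the 200 members with a RefSeq promoter of 300 bases, the median was 20 CG dinucleotides, against 14 over all 35116 promoters and 19 over the 1917 of chromosome 19. The observed number of CG, divided by that expected from base composition, reached 0.6 in 79.0% of the members' promoters, in 48.9% of all promoters and in 58.5% of those on chromosome 19. Members entered once per symbol, whereas the 2 wider sets were taken whole, with no choice by symbol or gene type, so the sets are not fully alike. In the 31-member cluster only ZNF14 and ZNF492, at 0.72 and 0.62, reached that value among the members with a promoter. ZNF91, ZNF93 and ZNF708 of that cluster were at 0.45, 0.43 and 0.44. These letters describe the promoters and were not related to any binding or methylation measurement here.

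Counted reads per library ran from 10156675 to 18224061 in U251 RNASeq, 22359794 to 30731476 in U251 RIPSeq, and 37736206 to 45134766 in U343. The members took 39410 to 139922 of these reads in a library, with a median of 100 to 438.5 reads per member. In the U251 RNASeq libraries 15 of 232 members had under 10 reads in every library, and in the U343 RIPSeq libraries 9 of 234. After edgeR's filter on low counts 207 members were tested in all 4 experiments and 4 (ZNF676, ZNF98, ZNF560 and ZNF781) in none. VIM and CD44, mesenchymal and glioma markers, were abundant in both lines, whereas GFAP, the astroglial filament, was read at 3.64 to 29.5 counts per 1000000 reads (CPM) in U251 and 3145 to 7370 in U343. NES was at 166 to 558 CPM in U251 and 103 to 431 in U343, and SOX2 at 60.6 to 122 and 531 to 727. S100B was low, at 0.195 to 1.60 CPM in U251 and 2.19 to 10.5 in U343, as was AQP4, at 0 to 0.850 and 7.58 to 29.4. OLIG2 stayed at or under 0.313 and markers of blood, endothelial and epithelial cells at or under 1.54 CPM. The 2 U251 RIPSeq controls stood apart from each other: the members differed between them by a median of 0.97 on the log2 scale, against 0.08 to 0.21 between the 2 libraries of each other group. The 0.21 was that of the U343 RNASeq miR-137 pair. By the mean chi-square per gene between 2 libraries, over all genes with 10 or more reads, that pair stood apart too. It had 174.6, the U251 RIPSeq controls 216 and the other groups 2.46 to 21.9. A list of 12 interferon-induced genes was higher with miR-137 in 12 of 12 in U251 RNASeq, 11 of 12 in both RIPSeq experiments and 0 of 12 in U343 RNASeq, where its median log2 fold change was nevertheless 5.59; its part in the members' results was not tested.

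In U343 RIPSeq, the PABP-bound RNA of the deeper line, zinc finger transcripts of chromosome 19 were higher with miR-137 far more often than lower. Of 221 members tested, 94 rose and 5 fell (edgeR, adjusted p under 0.05), or 42.5% and 2.26%, where 28.5% of all genes tested rose and 27.8% fell. Their median log2 fold change was 0.29, against 0.00 over all genes, and 173 of 221 lay above 0. Zinc finger genes on other chromosomes had 107 of 222 higher, 19 lower and a median of 0.32, and the difference from the members was not tested, while the other genes of chromosome 19 had 304 of 858 higher, 176 lower and a median of 0.14. Summed over the members, the level was 2349 and 2408 CPM (here and below scaled by TMM within each comparison) in the controls and 2931 and 3143 with miR-137, so that the groups did not overlap. Between 74 and 92 members rose when any 1 library was left out. More expressing cells and more RNA per cell cannot be told apart in bulk samples such as these.

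**Figure D1:**
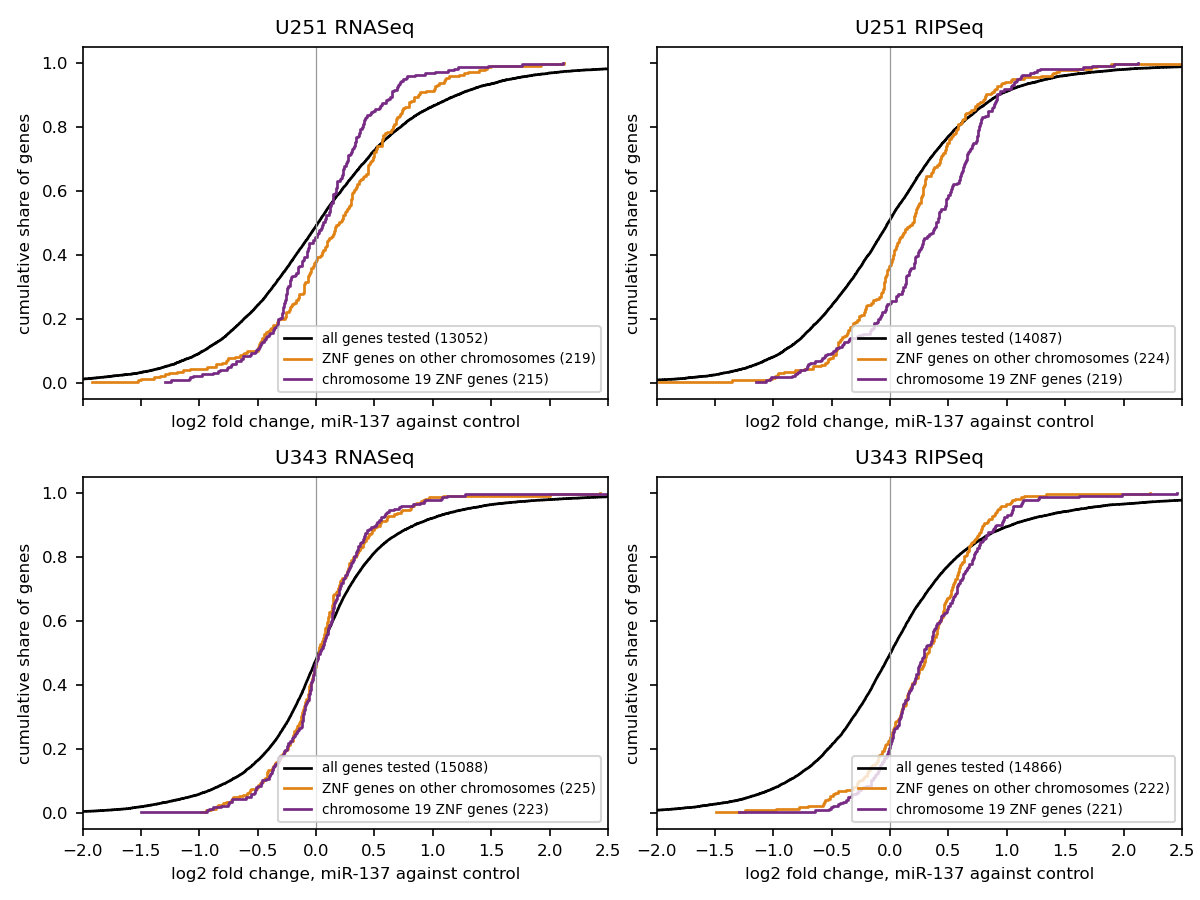
Cumulative share of genes (y axis) by log2 fold change of miR-137 over control (x axis, shown from -2 to 2.5) in each experiment, for the members, zinc finger genes on other chromosomes and all genes tested. In U343 RIPSeq the members' curve lies to the right of that of all genes over most of its length (medians 0.29 and 0.00), and in U343 RNASeq the medians are 0.03 and 0.02.

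ZNF541, a gene known for its part in the meiosis of male germ cells, had the largest rise. Its PABP-bound level in U343 was 0.421 and 0.443 CPM in the controls and 2.23 and 2.53 with miR-137, from 19 and 18 reads against 87 and 99 (log2 fold change 2.45, SE 0.23, edgeR adjusted p = 9.07e-05). In U343 total RNA it went from 7 and 5 reads to 66 and 83, a rise of 3.60 (SE 0.31, edgeR adjusted p = 0.00776). The ratio of summed reads there was 12.3, with a 95% Clopper-Pearson interval from 6.86 to 24.4 for counting error only. In U251 RNASeq it had at most 1 read in any library and was not tested, and in U251 RIPSeq 22 of its reads were in the first control and 1 in the second.

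Close behind came ZNF600 and ZNF468, near neighbours in the 39-member cluster (chr19:57960560-57981846 and chr19:58033597-58052714, both on the minus strand). PABP-bound ZNF600 was 1.57 and 1.28 CPM in the U343 controls and 5.43 and 5.92 in the miR-137 libraries (log2 fold change 1.99, SE 0.18, edgeR adjusted p = 7.22e-05). ZNF468 went from 7.80 and 7.72 to 23.2 and 24.5 CPM, a change of 1.62 (SE 0.10, edgeR adjusted p = 1.31e-05). The rule for named genes required the miR-137 libraries to lie above both controls. In both genes the gap was wider than the spread within either group. In their cluster 20 of 38 members tested rose, none fell and 35 lay above 0, with ZNF701 at 1.13, ZNF761 at 1.12 and ZNF160 at 1.00, all past the threshold. The cluster from ZNF565 to ZNF573 had fewer, 3 of 22, although 16 of its 22 members lay above 0. No test was made of the difference between clusters. In U343 total RNA, 81 of the 94 risen members also lay above 0, with a median of 0.24, where 52.5% of all members and 52.1% of all genes lay above 0. Of the 94, 7 rose past the threshold there, a share no larger than that of all genes in that experiment.

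Only 5 members fell in U343 RIPSeq, namely ZNF833, ZNF667, ZNF749, ZNF260 and ZNF358, the last named after its values were seen. ZNF833, a transcribed pseudogene, was at 1.13 and 1.45 CPM in the controls and at 0.538 and 0.511 with miR-137 (log2 fold change -1.29, SE 0.26, edgeR adjusted p = 0.00394). ZNF667 went from 8.78 and 9.57 to 6.51 and 6.23 (-0.53, SE 0.12, edgeR adjusted p = 0.00782), and ZNF749 from 7.25 and 6.94 to 5.56 and 5.34 (-0.38, SE 0.13, edgeR adjusted p = 0.0358). The rule for named genes required that control and miR-137 libraries not overlap, so this holds for all 3 by choice. The count of falls was 2 to 4 when a library was left out.

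Members with a known part in silencing of repeats or in gene repression were among those that rose. ZNF91, which represses SVA elements, was 7.01 and 5.61 CPM in the U343 RIPSeq controls and 11.6 and 12.9 with miR-137 (log2 fold change 0.96, SE 0.14, edgeR adjusted p = 0.000914). ZNF224, a KRAB repressor, went from 7.74 and 6.42 to 13.4 and 14.5 (0.98, SE 0.13, edgeR adjusted p = 0.000516), and ZNF350 (ZBRK1), a partner of BRCA1, from 8.14 and 7.72 to 13.9 and 15.8 (0.90, SE 0.12, edgeR adjusted p = 0.000456). ZNF274, which brings SETDB1 to the 3′ ends of zinc finger genes, rose less, by 0.40 (SE 0.09, edgeR adjusted p = 0.00681). ZNF93, which represses L1 elements, had -0.01 (SE 0.16), ZNF382 had 0.22 (SE 0.11), ZNF85 had 0.29 (SE 0.18), and none of these 3 passed the threshold (edgeR adjusted p = 0.959, 0.140 and 0.219).

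The U251 RIPSeq values leaned the same way without a call. Of 219 members tested none passed edgeR's threshold in either direction, where 0.944% of all genes tested were higher and 0.263% lower. An unadjusted edgeR p under 0.05 was found for 17 members, against 2828 of 14087 genes, a larger share. DESeq2 called 3 members higher. The median log2 fold change was 0.39 and 165 of 219 members lay above 0, but the summed level was 1690 and 2684 CPM in the 2 controls and 2942 and 2892 with miR-137. Without control replicate 1, 78 members rose and 41 fell with a median of 0.11 (32.8% and 35.3% of all genes); without control replicate 2, 159 rose and 25 fell with a median of 0.97 (40.2% and 34.2% of all genes). Both of these fits take the remaining control to vary as the miR-137 pair did. Of the 94 members that rose in U343 RIPSeq, 91 were tested in U251 RIPSeq and 78 (85.7%) lay above 0, against 75.3% of all members tested and 49.0% of all genes. Without control replicate 1 these shares were 79.1%, 58.6% and 52.1%.

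Single members showed how far the U251 result hung on that control pair. ZNF432 was 2.92 and 5.98 CPM in the U251 RIPSeq controls and 17.6 and 16.2 with miR-137 (log2 fold change 1.92, SE 0.41, edgeR adjusted p = 0.117), and ZNF350 went from 3.56 and 5.01 to 9.65 and 10.6 (1.23, SE 0.29, edgeR adjusted p = 0.128). In both genes the miR-137 libraries lay above both controls. ZNF468, in contrast, had 11.5 and 42.9 in the controls and 48.2 and 42.3 with miR-137, so that the groups overlapped. The study's own rule applies Fisher's exact test to each of the 4 pairs of libraries. It needs odds more than 2 times apart at an adjusted p below 0.001 in every pair. The study stated it for falls, and its use for rises was added here. So used, it found 6 members higher in U251 RIPSeq (ZNF550, ZNF823, ZNF160, ZNF432, ZNF350 and ZNF114) and 0 lower. There it took 3.47% of all genes as higher and 1.49% as lower. It also found 5 higher in U343 RIPSeq (ZNF699, ZNF541, ZNF701, ZNF600 and ZNF468; 4.83% of all genes), 3 in U251 RNASeq (ZNF550, ZNF628 and ZNF114; 6.14%) and ZNF541 in U343 RNASeq (1.51%). No member passed it as lower in any experiment, against 2.21% of all genes in U251 RNASeq, 2.88% in U343 RNASeq and 3.4% in U343 RIPSeq.

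**Figure D2:**
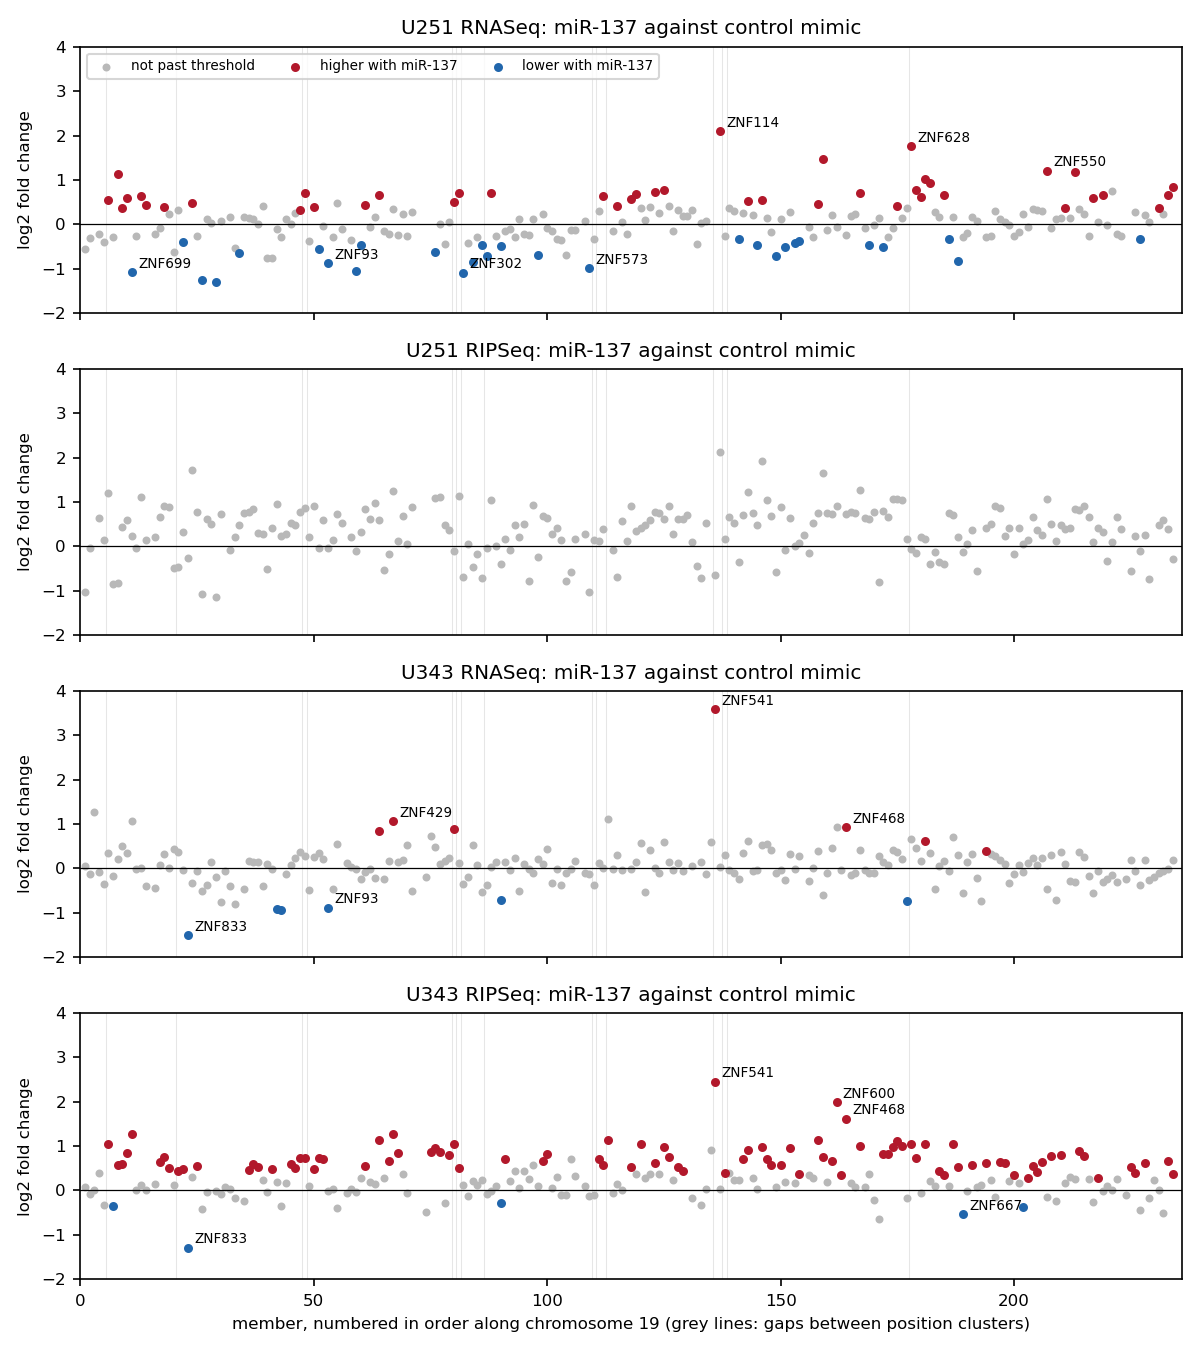
Log2 fold change of miR-137 over control (y axis) of each tested member in the 4 experiments, with members numbered in order along chromosome 19 (x axis). Red points rose and blue points fell at an edgeR adjusted p under 0.05 (43 and 28 in U251 RNASeq, 0 and 0 in U251 RIPSeq, 7 and 6 in U343 RNASeq, 94 and 5 in U343 RIPSeq), and rises in U343 RIPSeq are spread over most of the chromosome.

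In U251 total RNA members moved both ways, and the shares past the threshold were below those of all genes. Of 215 tested, 43 (20%) rose and 28 (13%) fell by edgeR, against 28.7% and 29% of all genes tested, and the median log2 fold change was 0.06 against 0.02. Their summed level was 4813 and 4727 CPM in the controls and 4939 and 4916 with miR-137. With upper-quartile scaling the split was 66 higher and 16 lower, and DESeq2 gave 26 and 14.

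The members that fell most in U251 RNASeq by the rule for named genes were ZNF302, ZNF699 and ZNF573. ZNF302 went from 26.5 and 29.1 CPM in the controls to 12.6 and 13.5 with miR-137 (log2 fold change -1.09, SE 0.15, edgeR adjusted p = 4.5e-05). ZNF699 went from 44.8 and 42.3 to 22.7 and 18.6 (-1.08, SE 0.15, edgeR adjusted p = 3.83e-05), and ZNF573 from 9.97 and 7.34 to 4.60 and 4.17 (-0.98, SE 0.22, edgeR adjusted p = 0.00212). That both miR-137 libraries lay below both controls was required by the rule for each of the 3. Among rises, ZNF628, a finger protein without a KRAB domain, went from 2.17 and 1.41 to 4.60 and 7.54 (1.76, SE 0.31, edgeR adjusted p = 0.00027), and ZNF550 from 5.30 and 4.89 to 13.4 and 10.3 (1.21, SE 0.20, edgeR adjusted p = 0.00018). ZNF580, a short non-KRAB finger protein, had 8.50 and 6.79 in the controls and 10.0 and 19.1 with miR-137 (0.93, SE 0.25, edgeR adjusted p = 0.00668), with a wide spread between the miR-137 libraries. ZNF146 (OZF), which consists almost wholly of fingers, rose from 145.3 and 137.8 to 241.7 and 222.6 (0.71, SE 0.13, edgeR adjusted p = 0.000333), whereas ZNF91 fell from 51.0 and 45.9 to 34.6 and 28.1 (-0.63, SE 0.15, edgeR adjusted p = 0.00229).

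In U343 total RNA few members passed the threshold. Of 223 tested, 7 rose and 6 fell by edgeR, against 8.31% and 11.7% of all genes, with a median log2 fold change of 0.03 against 0.02. Besides ZNF541, the largest rises were ZNF429, from 3.66 and 2.77 CPM to 6.17 and 7.36 (1.07, SE 0.22, edgeR adjusted p = 0.0375), and ZNF468, from 12.2 and 10.5 to 18.7 and 24.6 (0.94, SE 0.19, edgeR adjusted p = 0.0358). By the rule for named genes, the largest falls were ZNF833, from 1.36 and 1.32 to 0.356 and 0.590 (-1.50, SE 0.32, edgeR adjusted p = 0.0413), and the adjoining ZNF443 and ZNF799, by -0.93 (SE 0.18, edgeR adjusted p = 0.0334) and -0.92 (SE 0.19, edgeR adjusted p = 0.0369). The counts rested on single libraries: without miR-137 replicate 1 they were 31 higher and 16 lower, without miR-137 replicate 2 they were 20 and 23, and without either control they were 0 and 0.

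ZNF93, ZNF260, ZNF708, ZNF784 and ZNF536 were past the threshold in total RNA of both lines, and each moved in 1 direction in both. ZNF93 (chr19:19872722-19907382, plus strand) went from 36.2 and 38.4 to 18.3 and 22.2 CPM in U251 and from 7.04 and 6.78 to 3.21 and 4.29 in U343. Its log2 fold changes were -0.88 in both lines (SE 0.15 and 0.20, edgeR adjusted p = 0.000218 and 0.0493). ZNF260 fell by 0.49 in U251 (SE 0.13, edgeR adjusted p = 0.00694) and by 0.72 in U343 (SE 0.15, edgeR adjusted p = 0.0387). ZNF708 rose by 0.65 and 0.83 (SE 0.15 and 0.14, edgeR adjusted p = 0.00244 and 0.0255) and ZNF784 by 1.01 and 0.63 (SE 0.30 and 0.13, edgeR adjusted p = 0.0111 and 0.0379). ZNF536, a non-KRAB repressor known from neuronal differentiation, was 19.8 and 17.1 in the U251 controls against 26.6 and 25.7 with miR-137, and 34.5 and 29.3 against 55.6 and 62.6 in U343. That was a rise of 0.50 in U251 (SE 0.15, edgeR adjusted p = 0.0104) and 0.89 in U343 (SE 0.13, edgeR adjusted p = 0.019). They were 2.39% of the 209 members tested in both lines, against 11.5% of the 12458 genes tested in both that were past the threshold in 1 direction, and 0 members but 2.87% of genes were past it in opposite directions. In PABP-bound RNA of U343 the 3 risen genes rose too, by 1.13, 1.04 and 1.05. ZNF260 also fell there, but ZNF93 did not pass the threshold. In PABP-bound RNA of U251 none of these genes passed it, and ZNF536 had -0.11. The sign of each gene there depended on the control left out. Without control replicate 1 or 2 in turn, ZNF708 was at -0.07 or 2.01, ZNF784 at 1.497 or -0.44 and ZNF536 at -0.18 or 0.06. ZNF93 was at -0.35 or 0.46 and ZNF260 at -1.07 or 0.97.

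**Figure D3:**
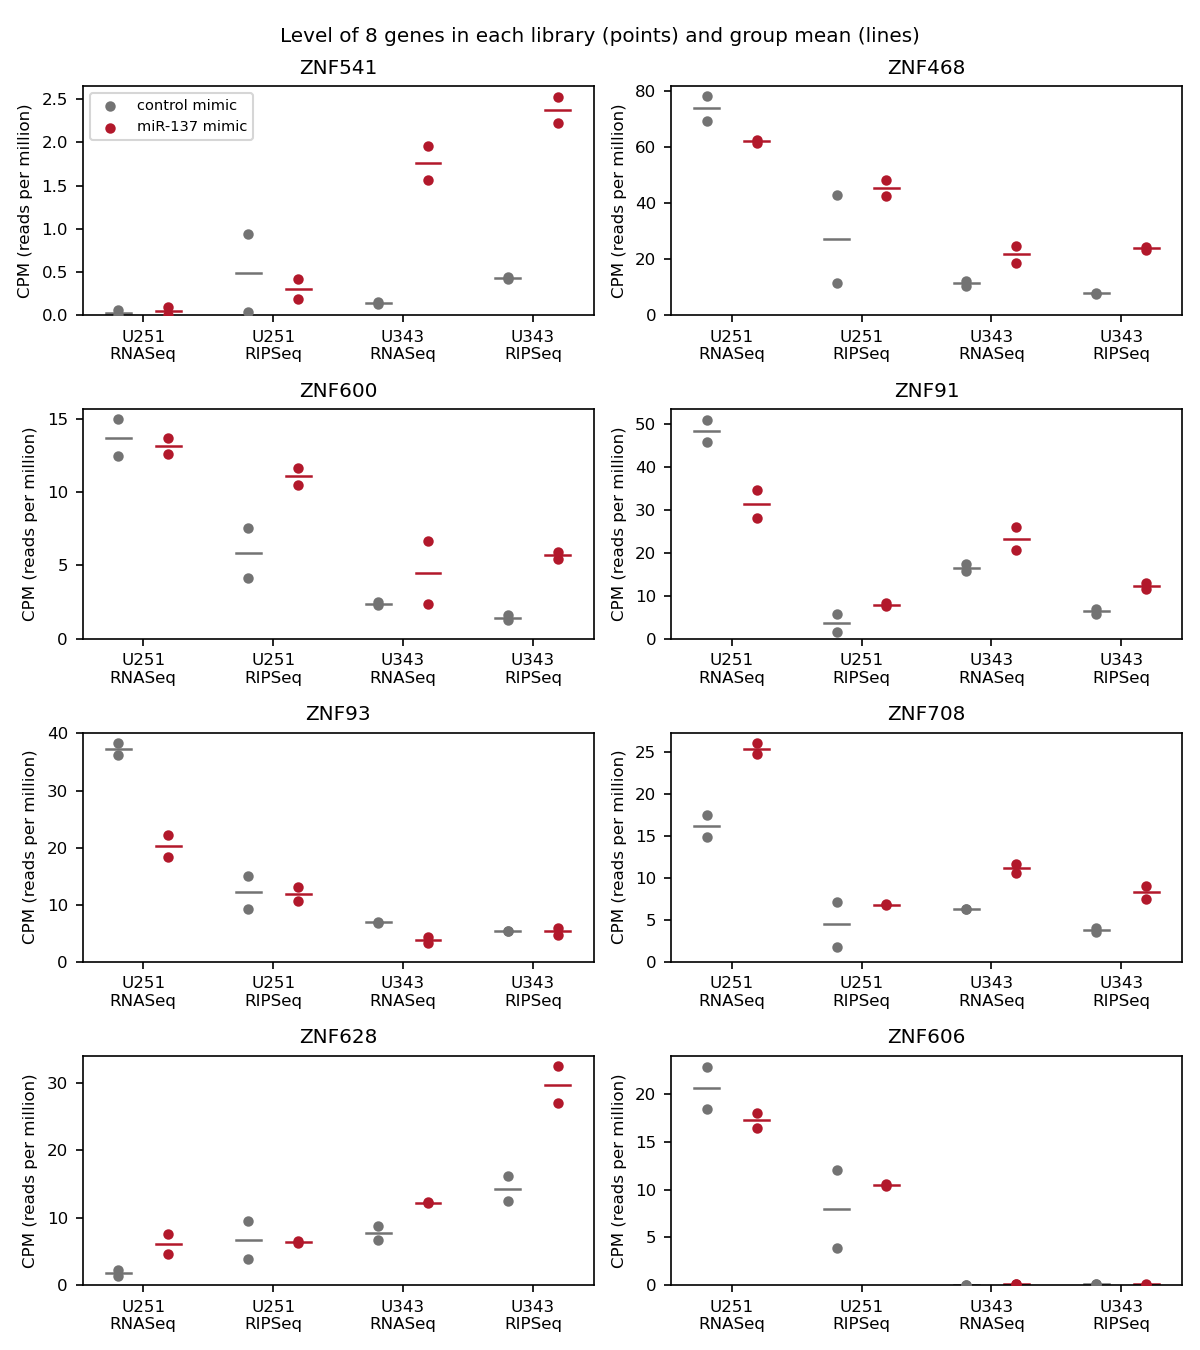
Level in CPM, (y axis, from 0, each panel to its own scale) of 8 members in each of the 16 libraries, grouped by line and assay, with grey points for control and red for miR-137 libraries and lines for group means. ZNF541, ZNF468 and ZNF600 are higher with miR-137 in both U343 RIPSeq libraries than in both controls, as the rule that named them required. ZNF93 is lower with miR-137 in total RNA of both lines, and ZNF606 is read at 0.155 CPM or less in every U343 library.

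A test of transfection by line in total RNA found 22 members whose response differed, 13 lower and 9 higher in U343 than in U251, of 228 tested (12.7% and 12.5% of all genes). Leaving out 1 library moved these counts to between 3 (without U251 control replicate 2 or either U343 control) and 26 (without U343 miR-137 replicate 2) lower, and to between 4 (without U343 control replicate 2) and 16 (without U343 miR-137 replicate 1) higher. ZNF699 fell in U251, as above, but had 3.23 and 3.09 CPM in the U343 controls and 4.44 and 8.91 with miR-137, a difference between lines of 2.15 (SE 0.41, edgeR adjusted p = 0.00756). ZNF91 and ZNF468 differed by 1.11 (SE 0.23) and 1.18 (SE 0.22), both towards a higher response in U343 (edgeR adjusted p = 0.00985 and 0.00701). ZNF114 (-2.08, SE 0.39) and ZNF550 (-1.68, SE 0.29) differed towards U251 (edgeR adjusted p = 0.00755 and 0.00495). ZNF114 had 9 and 12 reads in the U251 controls and 31 and 33 with miR-137, and 43 and 37 against 41 and 42 in U343. In PABP-bound RNA 0 of 228 members passed this test with edgeR (1.22% of all genes lower and 2.06% higher). There 16 members had an unadjusted edgeR p under 0.05, against 3353 of 15959 genes, and DESeq2 called 2 members in each direction.

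Whether the PABP-bound response exceeded that of total RNA was tested as an interaction of transfection with assay. In U343 the median difference of the 222 members tested was 0.34 on the log2 scale against 0.00 over all genes, and 191 lay above 0. Zinc finger genes on other chromosomes had a median of 0.28, with 182 of 225 above 0. No member passed edgeR's threshold, nor did more than 1 gene of all 15413 (0.00649%), although 69 members and 2712 genes in all had an unadjusted p under 0.05 and DESeq2 called 1 member. Leaving out RNASeq miR-137 replicate 2 raised the number of members called, but the share of all genes called in that fit was not counted. ZNF799 had a difference of 1.12 (SE 0.28, edgeR adjusted p = 0.196), ZNF93 0.87 (SE 0.27, edgeR adjusted p = 0.208) and ZNF541 -1.14 (SE 0.37, edgeR adjusted p = 0.218). In U251, 0 of 221 passed by edgeR or DESeq2 (0.0281% of all genes lower, 0.106% higher), and the median was 0.34. Zinc finger genes on other chromosomes had a median of -0.03 there, with 108 of 224 above 0. This U251 fit uses the 2 RIPSeq controls that stood apart, so its median is not a firm repeat of that of U343. There 15 members had an unadjusted edgeR p under 0.05, against 2688 of 14210 genes.

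With the control mimic, members were scarce in PABP-bound RNA relative to total RNA. In U343, 89 of 220 were lower and 9 higher by edgeR (24.2% and 24.4% of all genes), with a median log2 ratio of -0.32 against -0.02 over all genes. In U251, 32 of 216 were lower and 1 higher (6.14% and 7.87% of all genes), with a median of -1.06 against -0.01. The U251 comparison uses the 2 RIPSeq controls that stood apart: the 32 became 137 without RIPSeq control replicate 1, 167 without RIPSeq control replicate 2 and 5 without either RNASeq control, 87 with DESeq2 and 0 without a filter, and the 89 of U343 became 48 to 59 without 1 library. Zinc finger genes on other chromosomes were low too, with 96 of 224 lower and a median of -0.26 in U343 and 30 of 220 lower and a median of -0.64 in U251. The other genes of chromosome 19 lay on the opposite side, at medians of 0.15 in U343 and 0.91 in U251. Of the 89 low members of U343, 88 were tested in U251 and 81 (92.0%) lay below 0 there, against 88.4% of all members and 50.2% of all genes tested. With miR-137 libraries in place of controls, the U251 counts were 154 lower and 6 higher (33.5% and 32.4% of all genes, median -0.66), but those of U343 were 6 lower and 8 higher (8.78% and 9.29%, median 0.01). The control comparison uses the RIPSeq and RNASeq control libraries that the miR-137 comparisons above also use.

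ZNF91 (chr19:23332338-23370109, minus strand) was the most depleted member in both lines. In U251 it was 46.0 and 40.9 CPM in total RNA and 1.62 and 5.58 in PABP-bound RNA, a log2 ratio of -3.58 (SE 0.61, edgeR adjusted p = 0.0242). In U343 it was 16.8 and 15.3 in total and 7.31 and 5.84 in bound RNA, -1.28 (SE 0.14, edgeR adjusted p = 0.000292), and it stayed low with miR-137, at -1.88 in U251 and -0.81 in U343 (SE 0.13 and 0.16, edgeR adjusted p = 7.33e-06 and 0.0366). In U251, ZNF681 had -2.43 (SE 0.56) and ZNF699 -2.35 (SE 0.43), and in U343, ZNF439 had -1.25 (SE 0.41, from 33 and 13 reads) and ZNF417 -1.18 (SE 0.12), all past the threshold (edgeR adjusted p = 0.0408, 0.028, 0.0384 and 0.000256).

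ZNF580 was the reverse. In U251 it was 7.65 and 6.05 CPM in total RNA and 67.4 and 27.6 in bound RNA (2.79, SE 0.51, edgeR adjusted p = 0.0274), and in U343 15.1 and 17.1 against 40.7 and 42.7 (1.38, SE 0.10, edgeR adjusted p = 5.39e-05). ZNF414 reached 1.10 in U343 (SE 0.15, edgeR adjusted p = 0.000882) and ZNF541 1.68 (SE 0.40, edgeR adjusted p = 0.0104, 12 reads in total and 37 in bound RNA). ZNF580 lies in a run of 8 adjacent members from ZNF628 to ZNF444, picked out after their values were seen. All 8 had a bound over total ratio above 0 in U251, from 0.15 to 2.79, of which only that of ZNF580 passed the threshold. In U343, 3 of the 8 lay below 0, 2 were lower and 3 higher past the threshold, and the median was 0.14. In total RNA, 7 of the 8 were higher in U343 than in U251, by a median of 2.17 over the run.

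**Figure D4:**
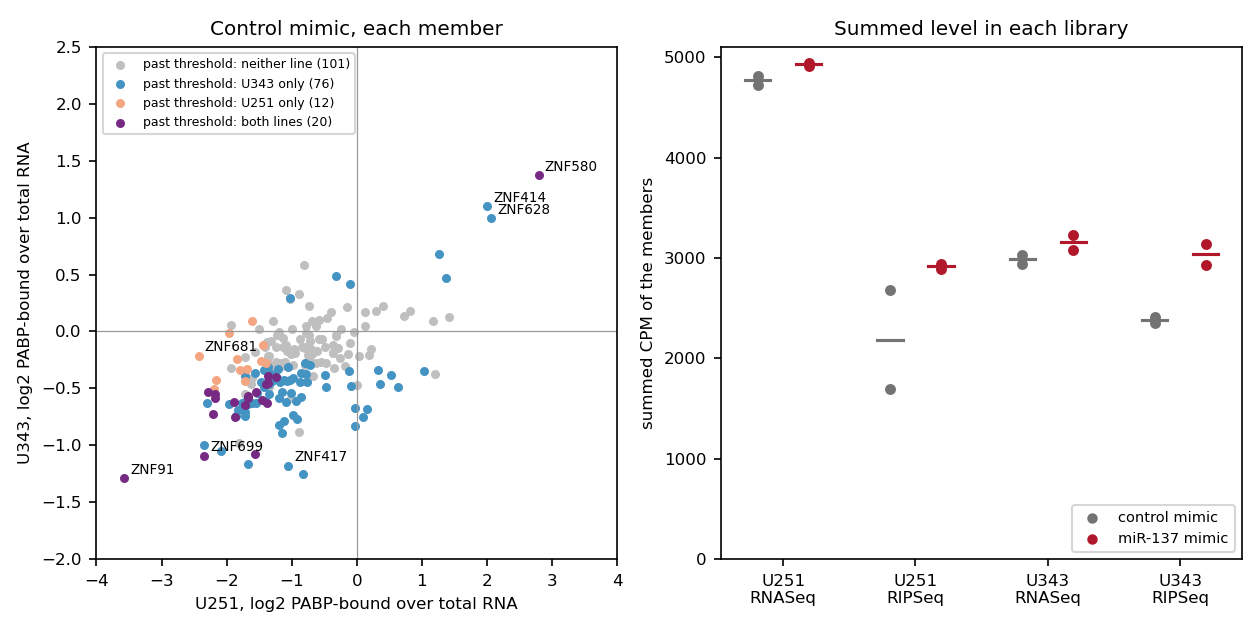
Left, log2 ratio of PABP-bound over total RNA with the control mimic for each member tested in both lines, U251 on the x axis and U343 on the y axis, coloured by where the ratio passed an edgeR adjusted p of 0.05; most points lie below 0 on both axes, with ZNF91 lowest and ZNF580 highest. Right, summed CPM of the members (y axis) in each library with group means as lines, where the U251 RIPSeq controls lie at 1690 and 2684 and the U343 RIPSeq groups do not overlap.

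Between the lines themselves, most members were higher in U251. In total RNA of control cells 133 of 224 were lower in U343 and 53 higher by edgeR (39.9% and 44.9% of all genes), with a median log2 difference of -0.67 against 0.10 over all genes. Zinc finger genes on other chromosomes leaned the same way, with 114 of 227 lower, 75 higher and a median of -0.39. The other genes of chromosome 19 went the other way, at a median of 1.28 with 607 of 817 higher in U343. The 31-member cluster of ZNF91 had 20 of 28 tested lower in U343 and 4 higher, and the cluster from ZNF575 to ZNF296 had 17 of 21 lower and 2 higher, whereas the 57-member cluster was split, 26 lower and 25 higher. In PABP-bound RNA of control cells the fit showed no such lean, with 22 lower and 29 higher of 227 (16.5% and 19% of all genes) and a median of 0.05. That fit uses the 2 U251 RIPSeq controls that stood apart, at summed levels of 1690 and 2684 CPM. It was not repeated without either of them, so whether PABP-bound RNA lacks the lean stays uncertain. Of the 133 genes lower in U343 total RNA, 97 also lay below 0 in PABP-bound RNA, and of the 53 higher genes 51 lay above 0. Library kit and line cannot be told apart in any of these values.

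A few members were read almost only in 1 line. ZNF606 (chr19:63180253-63206526, minus strand) had 358 and 301 reads in the U251 controls and 1 and 2 in the much deeper U343 controls. The ratio of scaled reads was 556 in favour of U251, with a Clopper-Pearson 95% interval from 189 to 2701. It stayed at 3 and 3 reads with miR-137 in U343, and at 1 to 7 reads in U343 RIPSeq. ZNF329 (chr19:63329507-63353960, minus strand), the next but 1 member along the chromosome, was the mirror image, with 2 and 4 reads in the U251 controls and 647 and 489 in those of U343, a ratio of 74.9 (interval 34.3 to 204).

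ZNF486 (145 and 135 reads in U251, 7 and 5 in U343) and ZNF844 (144 and 142 against 9 and 5) were also nearly restricted to U251, at log2 differences of -5.84 and -5.66 (SE 0.28 and 0.27, edgeR adjusted p = 1.25e-07 and 1.38e-07). ZNF837 (7 and 4 reads in U251, 784 and 740 in U343) and ZNF492 (1 and 3 against 133 and 112) were nearly restricted to U343, at 5.77 and 4.55 (SE 0.26 and 0.42, edgeR adjusted p = 1.03e-07 and 8.41e-06). Among the repeat-silencing members, ZNF93 was lower in U343 by 2.38 (SE 0.12) and ZNF91 by 1.49 (SE 0.11), with edgeR adjusted p = 1.6e-07 and 2e-06. Counting members with at most 10 reads in the pair of controls of 1 line and 100 or more in the other gave ZNF606 on the U251 side, and ZNF329, ZNF492 and ZNF763 on the U343 side.

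**Figure D5:**
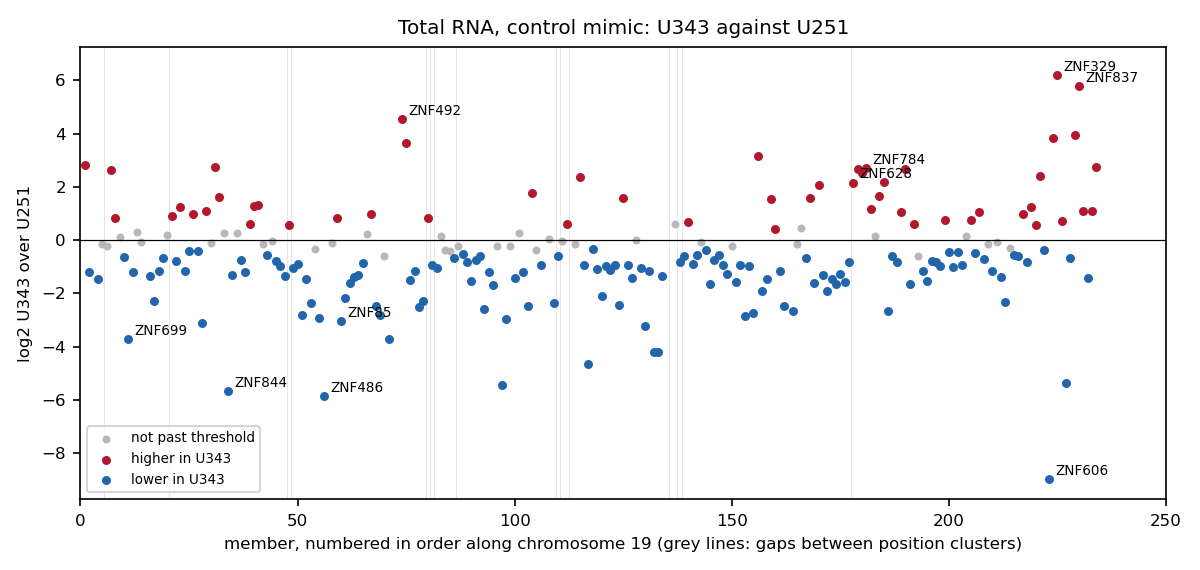
Log2 difference of U343 over U251 in total RNA of control cells (y axis) for each tested member in order along chromosome 19 (x axis), with red points higher and blue points lower in U343 at an edgeR adjusted p under 0.05. There are 133 blue and 53 red points, from ZNF606 at -8.96 to ZNF329 at 6.19, and the red points include the run that begins with ZNF628.

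The partners through which KRAB domains act were followed as a list of 16 genes, of which 15 were measured and DAXX was not analysed here. In U251 RNASeq 7 fell and 2 rose, in U343 RNASeq 2 fell and 0 rose, in U343 RIPSeq 6 fell and 4 rose, and in U251 RIPSeq 0 passed edgeR's threshold. Over all genes the shares lower and higher were 29% and 28.7% in U251 RNASeq, 11.7% and 8.31% in U343 RNASeq, and 27.8% and 28.5% in U343 RIPSeq, so that 2 of 15 in U343 RNASeq and 4 of 15 higher in U343 RIPSeq are near those of all genes. TRIM28, the partner that binds KRAB directly, had log2 fold changes of 0.01 in U251 RNASeq, -0.36 in U343 RNASeq and 0.03 in U343 RIPSeq, none past the threshold (edgeR adjusted p = 0.939, 0.053 and 0.883). CBX5 (HP1 alpha), which reads methylated H3K9, fell the most, from 617 and 590 CPM to 137 and 112 in U251 RNASeq (-2.28, SE 0.15, edgeR adjusted p = 4.94e-08) and from 262 and 268 to 126 and 110 in U343 RIPSeq (-1.17, SE 0.10, edgeR adjusted p = 5.82e-05). CBX3 (HP1 gamma) fell in U343 RIPSeq by 0.66 (SE 0.09, edgeR adjusted p = 0.000486), where SETDB1, the methyltransferase, rose by 0.38 (SE 0.08, edgeR adjusted p = 0.00512). HDAC1 rose by 1.61 in U251 RNASeq (SE 0.13, edgeR adjusted p = 3.9e-07) while HDAC2 fell by 0.77 (SE 0.13, edgeR adjusted p = 0.000211).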

How the data were processed

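Libraries were made by the authors from total RNA (RNASeq, ribosomal RNA removed) or from RNA precipitated with antibodies to PABP (RIPSeq). Per the study's methods, reads of 36 cycles were aligned with RMAP to hg18 and counted over a single merged transcript for each RefSeq gene, and the deposited tables hold these raw read counts. The treatment of reads that match several genes is not given in the sources used here, and the strand column of the U251 tables holds only +, so it was not used. Groups came from the sample labels. Each experiment was fitted over all genes with edgeR 4.0.16 in R 4.3.3 (quasi-likelihood F test, TMM scaling, filterByExpr, Benjamini-Hochberg adjustment over all genes tested, threshold 0.05), and interactions were fitted over 8 libraries. CPM are scaled by TMM within each fit. Scripts were tested on simulated data.

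The rule for named genes took, per comparison, up to 3 members with the largest change in each direction past the threshold (for transfection and line comparisons averaging 50 reads or more in the higher group, and for transfection the same direction in all 4 pairs of libraries), members past it in total RNA of both lines, and a fixed list of known members. The members, the list of KRAB partners, the interferon-induced genes, the cell markers and the rules were chosen with earlier results of these data known. Of the 12 cell markers, 5 of 6 tested fell in U251 RNASeq, 0 of 7 passed in U251 RIPSeq, 2 of 8 rose in U343 RNASeq, and 2 of 8 fell and 1 rose in U343 RIPSeq, beside the shares of all genes given for those experiments. Alternatives were DESeq2 1.42.0, other scalings and filters, a replicate block, a joint fit, the study's rule (extended here to rises) and leaving out each library. Depth limits members with few reads, and intervals cover counting error only. Protein sequences were not used here, so members were not split by KRAB domain.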

Additional observations from a re-analysis of the deposited data

Results flagged for a closer look

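By a test of transfection by line in total RNA, 13 of 228 members (5.7%) responded lower and 9 (3.95%) higher in U343. Over all genes these shares were 12.7% and 12.5%. The response of total RNA to miR-137 thus differed between the lines for 22 members, a smaller share than of all genes. Those that the rule for named genes also took were ZNF550, with a difference of U343 minus U251 of -1.68 on the log2 scale (SE 0.29, edgeR adjusted p = 0.00495), ZNF91 at 1.11 (SE 0.23, edgeR adjusted p = 0.00985), ZNF146 at -0.69 (SE 0.17, edgeR adjusted p = 0.0191), ZNF302 at 0.72 (SE 0.21, edgeR adjusted p = 0.0402), ZNF699 at 2.15 (SE 0.41, edgeR adjusted p = 0.00756) and ZNF468 at 1.18 (SE 0.22, edgeR adjusted p = 0.00701). ZNF114, ZNF331 and ZNF823, which the report names for other reasons, were also among the 22, at -2.08, -1.13 and -0.82 (edgeR adjusted p = 0.00755, 0.0242 and 0.0242). Without 1 library the 13 lower members became 3 to 26 and the 9 higher 4 to 16. Library kit and line cannot be told apart in these differences.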

How the results depend on the processing

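No single named member that passed the threshold changed sign under an alternative, but 89 values of named members that had not passed it did. Of these, 9 then passed it, all without a U251 RIPSeq control: with control replicate 1 or 2 left out in turn, ZNF260 was at -1.07 or 0.97 and ZNF302 at -1.38 or 0.70 (log2). Members lower and higher with miR-137 numbered 28 and 43 in U251 RNASeq, against 14 and 26 with DESeq2, 16 and 66 with upper-quartile scaling, 1 and 8 in the joint fit and 0 and 3 by the study's rule; 16 were lower with a minimum mean of 50 reads and 26 higher without a filter. In U251 RIPSeq the 0 and 0 became 3 higher with DESeq2, 1 lower and 11 higher in the joint fit and 6 higher by the rule. In U343 RNASeq the 6 and 7 became 12 and 13 with DESeq2, 15 and 21 in the joint fit and 0 and 1 by the rule. In U343 RIPSeq the 5 lower became 3 with DESeq2, upper-quartile scaling, the minimum of 50 or the joint fit and 0 by the rule, and the 94 higher became 5 by the rule. DESeq2 called 1 member higher in the U343 interaction with assay and 2 in each direction in the RIPSeq interaction with line, and without a filter 8 were lower in that of RNASeq. For PABP-bound against total RNA in U251, 32 lower and 1 higher became 87 and 6 with DESeq2, 0 and 0 without a filter and 154 and 6 in miR-137 libraries, in which the 89 lower and 9 higher of U343 became 6 and 8, with the median moving from -0.32 to 0.01. Between lines, 133 lower and 53 higher became 22 and 29 in RIPSeq, with the median moving from -0.67 to 0.05. The summed U251 RNASeq ratio was 0.05 with TMM, 0.31 per total count and 0.19 with upper-quartile scaling (log2). The fits on miR-137 libraries for PABP, and on RIPSeq or miR-137 libraries for the lines, were chosen after seeing the data. The shares of all genes called with DESeq2, other scalings or filters, the joint fit or the replicate block were not counted. The cause of these shifts was not tested.

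With a replicate block, members lower and higher were 0 and 3 in U251 RIPSeq, 2 and 3 in U343 RNASeq, 9 lower in U343 RIPSeq, and 116 and 7 in U251 PABP-bound RNA. Same-numbered libraries deviated together with correlations of 0.048, -0.027, 0.129 and 0.367 in U251 RNASeq, U251 RIPSeq, U343 RNASeq and U343 RIPSeq, and no label ties the numbers to a batch.

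Leaving out 1 library at a time gave 16 to 24 lower and 28 to 42 higher in U251 RNASeq, 0 to 41 and 0 to 159 in U251 RIPSeq, 0 to 23 and 0 to 31 in U343 RNASeq, and 2 to 4 and 74 to 92 in U343 RIPSeq. The interactions with assay ranged over 0 to 19 and 0 to 127 in U251 and 0 to 1 and 0 to 47 in U343, and those with line over 3 to 26 and 4 to 16 in RNASeq and 0 to 97 and 0 to 52 in RIPSeq. PABP-bound against total RNA gave 5 to 167 and 0 to 18 in U251 and 48 to 59 and 5 to 8 in U343, and the lines 124 to 129 and 49 to 53. The upper ends in U251 RIPSeq, its interactions and its PABP ratios came without a RIPSeq control, and those of U343 RNASeq without a miR-137 library. A lone remaining library is taken to vary like the others. Except for U251 RIPSeq without a control, the share of all genes called was not counted in these fits. Of the values of single members under all alternatives, 1638 stayed, 112 lost and 69 gained the call. Members under 10 reads in every library could not be tested at this depth.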
